A study of Arabidopsis thaliana with 12 samples.

Results

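The 10 genes described here encode nucleolar factors of pre-rRNA processing and ribosome assembly in Arabidopsis thaliana. They are the nucleolins NUC1 and NUC2, the PES, BOP1 and WDR12 subunits of the PeBoW complex, the paralogs BRX1-1 and BRX1-2, the GTPase NSN1, the Pumilio protein APUM23 and the bystin-like protein ENP1. They were chosen by gene identifier, for their function and with earlier results of these data known, out of 33602 genes in the count tables. All 10 were among the 17933 genes that passed the filter on low counts. Polyadenylated RNA was sequenced from shoots of Col-0 seedlings that had grown for 4 days under continuous light on half-strength Murashige and Skoog medium. The seedlings were then kept for 8 h on plates with one of 3 inhibitors of the TOR kinase (2 µM AZD8055, 20 µM KU63794 or 10 µM TORIN1) or with an equal amount of the solvent DMSO (mock). Each of the 4 groups had 3 libraries, all groups were wild type, and the 3 inhibitor groups share the same mock libraries. The doses differ between compounds, so their values are set side by side and were not tested against each other. Separate cultures for the replicates are not stated in the labels; p-values therefore reflect the variation among these 12 libraries, which may be technical.

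Ribosome assembly starts in the nucleolus, where RNA polymerase I transcribes a long precursor that is cut and trimmed into the mature rRNAs while ribosomal proteins and a large set of assembly factors bind and leave. Nucleolin binds rDNA chromatin and the precursor, the small-subunit processome acts on the 5′ part of the precursor, and PeBoW acts on the particles that become the large subunit. TOR, a kinase that adjusts growth to the supply of nutrients and energy, is a known positive regulator of ribosome production in yeast, animals and plants. Promoters of plant ribosomal protein and assembly factor genes are known to be rich in short elements called the telo box and site II.

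The starts of the 10 genes were read for both elements. The telo box was searched as AAACCCTA and the site II element as TGGGCC or TGGGCT, on both strands, from 250 bases before to 50 bases after the annotated gene start in RefSeq's TAIR10.1 assembly. A telo box lay in 7 of 10 windows (70.0%), against 6.22% of the windows of all 27443 protein-coding genes and 5.51% of the 17410 among them that passed the filter on low counts. A site II element lay in 8 of 10 (80.0%), against 21.7% of all protein-coding genes and 26.4% of those past the filter. Both motifs lay in 5 of 10 (50%), NUC1, BRX1-1, BRX1-2, BOP1 and ENP1, against 2.2% of all protein-coding genes and 2.53% of those past the filter. PES, WDR12 and APUM23 had no telo box in the window, and NUC2 and NSN1 no site II element. In 5 of the 7 genes with a telo box, NUC1, NUC2, BRX1-1, BRX1-2 and ENP1, it lay within the first 50 transcribed bases. The window upstream of BRX1-1 lies inside the last exon of the preceding gene AT3G15470.

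**Figure D1:**
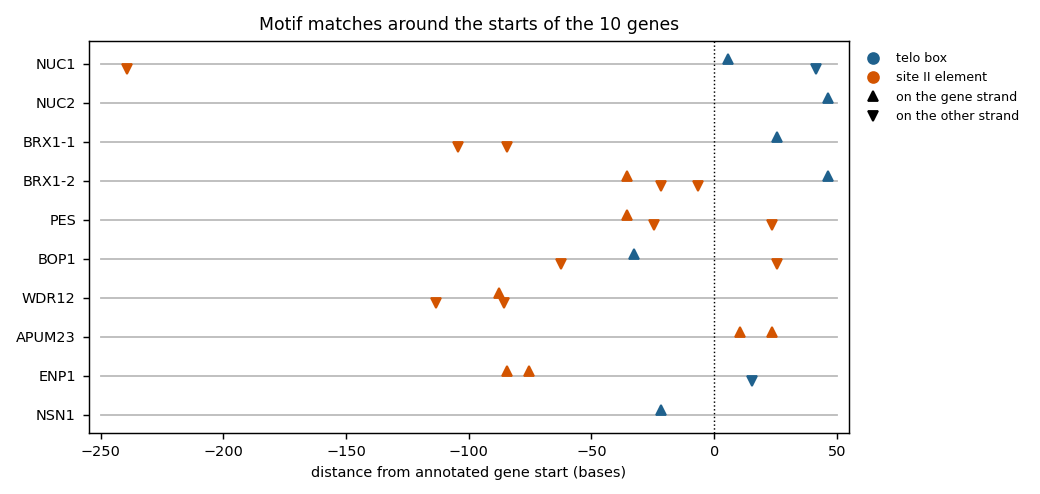
Positions of telo boxes (blue) and site II elements (orange) from 250 bases before to 50 bases after the annotated start of each gene. Upward triangles are matches on the gene's own strand and downward triangles on the other strand. Telo boxes sit close to the start, upstream in BOP1 and NSN1 and downstream in the other 5 genes that have one. Most site II elements lie upstream, as does most of the window, so their number there shows no preference.

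Sequence is shown for the 6 genes with a match in the last 130 bases before the start, outside the exons of other genes, to let the spacing of the elements be read. The stretch was shortened where an exon of another gene began, and the single upstream match of NUC1, at -242, lies beyond it. Each line is RefSeq TAIR10.1 sequence on the gene's own strand, 5′ to 3′, and ends at the base before the annotated start. Capitals mark the motif matches. GGCCCA and AGCCCA are the site II words read on the other strand. In WDR12 the palindrome TGGGCCCA holds overlapping matches on both strands, which were counted as 2.
BRX1-2, chr1:19711082-19711178, plus strand: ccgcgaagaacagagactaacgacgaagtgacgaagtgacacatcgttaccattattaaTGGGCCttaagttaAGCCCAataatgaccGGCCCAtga
PES, chr5:4684473-4684596, minus strand: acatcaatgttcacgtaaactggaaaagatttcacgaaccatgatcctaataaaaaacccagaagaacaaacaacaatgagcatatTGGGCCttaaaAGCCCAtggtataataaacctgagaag
BOP1, chr2:16856772-16856901, minus strand: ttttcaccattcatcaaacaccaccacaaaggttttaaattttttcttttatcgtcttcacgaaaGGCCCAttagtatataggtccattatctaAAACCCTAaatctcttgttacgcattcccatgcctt
WDR12, chr5:5062145-5062274, minus strand: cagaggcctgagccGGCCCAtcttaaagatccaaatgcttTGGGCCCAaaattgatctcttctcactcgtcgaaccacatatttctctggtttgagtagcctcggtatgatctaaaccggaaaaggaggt
ENP1, chr1:11333541-11333670, minus strand: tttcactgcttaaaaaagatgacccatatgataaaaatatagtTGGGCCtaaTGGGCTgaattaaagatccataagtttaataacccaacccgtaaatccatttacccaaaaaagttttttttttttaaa
NSN1, chr3:2232362-2232464, minus strand: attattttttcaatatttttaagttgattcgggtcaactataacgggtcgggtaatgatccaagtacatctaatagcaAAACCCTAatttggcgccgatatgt
BRX1-2 and PES show the same arrangement, a site II word on the gene's strand followed within a few bases by one on the other strand, and both lack an upstream telo box. BOP1 carries a site II element upstream of its telo box and another downstream of the start, and NSN1 carries a telo box alone. A match describes the letters in this window and is no evidence of a bound factor.

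Library totals ran from 7706957 to 14696645 counts, so that 3 counts, the floor used here for a count of 0, correspond to 0.205 to 0.391 CPM (counts of a gene per 10 to the power of 6 counts of the library, the total being adjusted by edgeR's TMM factor). Intervals and floors of this kind cover counting error only. Photosynthesis genes were high, as 5 shoot markers summed to 33868 to 51374 CPM with AZD8055, 34457 to 36524 CPM with KU63794, 36241 to 53148 CPM with TORIN1 and 38459 to 40743 CPM in mock. The 8 root markers summed to 3.75 to 5.58 CPM with AZD8055, 6.04 to 7.03 CPM with KU63794, 2.06 to 4.75 CPM with TORIN1 and 6.25 to 9.57 CPM in mock, and 3, 1, 4 and 0 of them had no count in these groups. Replicates differed more in most inhibitor pairs than in mock. The chi-square of counts per degree of freedom between 2 libraries of a group was 9.35 to 20.2 with AZD8055, 4.96 to 14.7 with KU63794, 4.51 to 14.1 with TORIN1 and 3.59 to 4.86 in mock. AZD8055 replicate 3 had the lowest value of all 12 libraries for 9 of the 10 genes, BRX1-1 excepted, and KU63794 replicate 2 stood apart from the other KU63794 libraries with 14.7 and 14.0 against 4.96 between those. The fold changes of the 10 genes with these compounds are therefore also given without them.

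Nearly the whole group of nucleolar factors was lower with each inhibitor. The 10 genes were chosen with earlier results of these data known, so their counts are a description and the group was not tested. With edgeR's quasi-likelihood test and Benjamini-Hochberg adjustment over all 17933 genes at an adjusted p below 0.05, 9 of 10 were lower in AZD8055 shoots, 8 in KU63794 shoots and 9 in TORIN1 shoots, and none was higher. Over all tested genes, 16.1% were lower with AZD8055, 14.3% with KU63794 and 10.3% with TORIN1, while 14.4%, 11.1% and 9.86% were higher, so that 30.5%, 25.4% and 20.1% changed in either direction. The median log2 fold change of the 10 genes was -1.36 with AZD8055, -1.21 with KU63794 and -0.84 with TORIN1, where the medians over all genes were 0.00, 0.01 and -0.01. Of the genes called with KU63794 56.4% were lower, and 45.7% with plain library totals in place of TMM scaling. With TORIN1 these shares were 51.0% and 63.3%, and under both scalings the calls of the 10 genes numbered the same. NUC1, BRX1-2, PES, BOP1, WDR12, APUM23, ENP1 and NSN1 were called lower with all 3 inhibitors. The share of all tested genes lower with all 3 was not computed. It is at most the 10.3% lower with TORIN1, and the 3 comparisons share the same mock libraries. All 3 inhibitor libraries lay below all 3 mock libraries for 9 of 10 genes with each compound, as they did for 22.8%, 23.3% and 21.6% of all tested genes with AZD8055, KU63794 and TORIN1. None of the 10 had all inhibitor libraries above mock, against 20.7%, 20.7% and 20.5% of all tested genes. The exceptions among the 10 were NUC2 with AZD8055 and TORIN1 and BRX1-1 with KU63794.

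The summed level of the 10 genes, of which NUC1 holds most, was 502, 549.7 and 359.8 CPM in the AZD8055 libraries, 500.1, 501 and 547 CPM in the KU63794 libraries and 772, 698 and 613 CPM in the TORIN1 libraries. In the mock libraries it was 1164, 1210.4 and 1199 CPM. The groups of inhibitor libraries lay well below mock, and the lowest mock library stood above the highest inhibitor library. Without AZD8055 replicate 3 the same number of 9 genes was called lower with AZD8055. Among those 9 genes, the log2 fold change then ranged from -0.90 for APUM23 to -1.38 for BRX1-1. Without KU63794 replicate 2, BRX1-1 was called as well and 9 genes were lower with KU63794, from -0.76 for APUM23 to -1.50 for BRX1-2. In whole shoots, fewer cells of a type and less RNA per cell cannot be told apart. Beside this, the summed level of 8 marker genes of dividing cells was 100.2 to 158 CPM with AZD8055, 118 to 149 CPM with KU63794, 127 to 152 CPM with TORIN1 and 159 to 168 CPM in mock. Of these 8 markers, PCNA1 was lower with AZD8055 (log2 fold change -0.64, edgeR adjusted p = 0.0481), PCNA2 was lower with KU63794 (-0.45, edgeR adjusted p = 0.0262) and none was called with TORIN1. The 8 estimates ran from -0.64 to 0.49 with AZD8055, -0.58 to 0.28 with KU63794 and -0.41 to 0.22 with TORIN1. None was called higher, and KNOLLE lay above 0 with each compound (0.49, 0.28 and 0.12, not called). The list's median log2 fold change was -0.19, -0.13 and -0.17, and its part in the lower levels of the nucleolar genes was not tested.

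**Figure D2:**
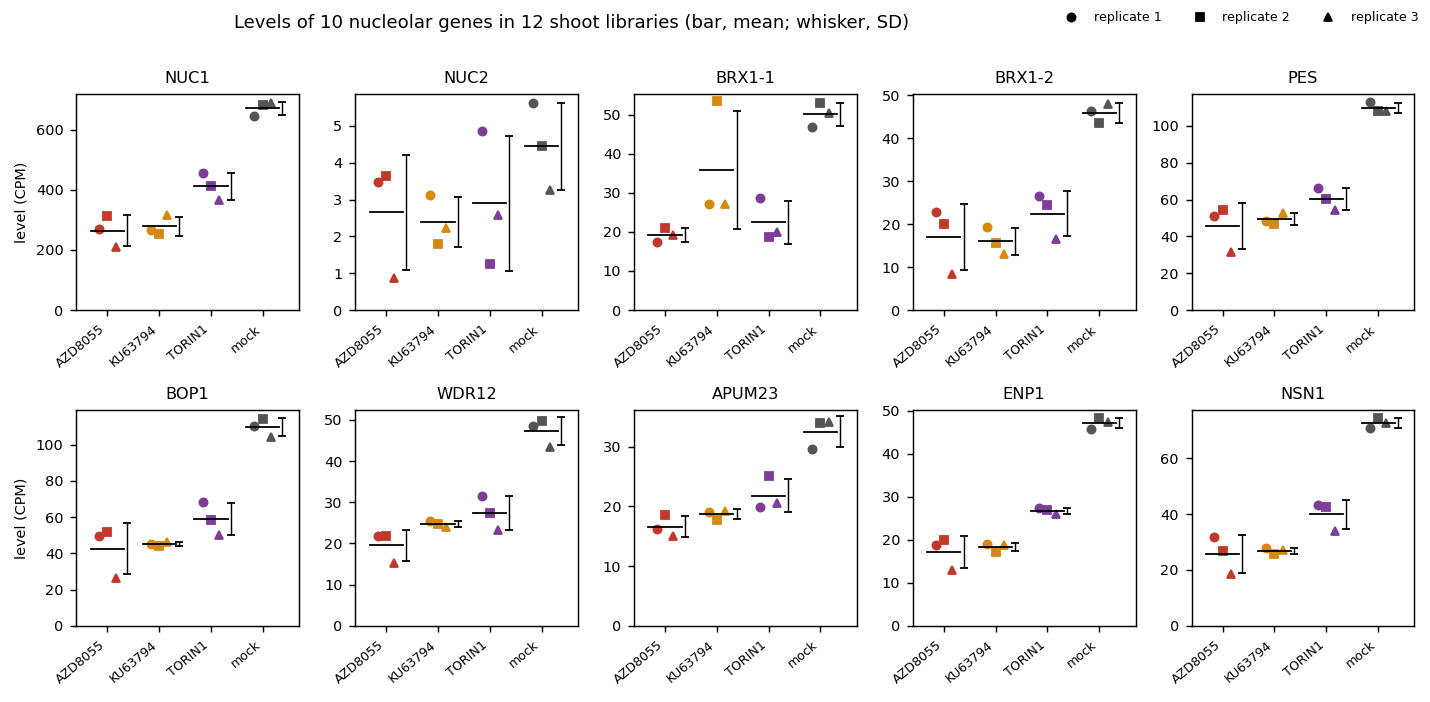
Level in CPM (linear axis from 0) of each of the 10 genes in the 12 libraries. Symbols are replicates, bars are means and whiskers are SD, with n = 3 in each group. The mock libraries stand above all inhibitor libraries in every panel except those of NUC2 and BRX1-1.

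In mock shoots the genes spanned a wide range of levels per length. On the scale of CPM per kilobase of exon, NUC1 was at 322 ± 10.4 (SD, n = 3 here and for the other genes), PES at 50.7 ± 1.35, BOP1 at 41.5 ± 1.92 and BRX1-1 at 41.1 ± 2.51. BRX1-2 was at 36.7 ± 1.83, NSN1 at 34.9 ± 0.866, ENP1 at 27.9 ± 0.734, WDR12 at 24.8 ± 1.75, APUM23 at 9.28 ± 0.738 and NUC2 at 1.97 ± 0.522. Neighbours in this order had separate ranges, apart from BOP1 and BRX1-1 and from BRX1-2 and NSN1, whose ranges overlapped.

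NUC1 (AT1G48920, chr1:18098081-18101732, plus strand, TAIR10.1 as for all genes here) encodes the main Arabidopsis nucleolin, a protein that organises rDNA chromatin and binds the rRNA precursor. It measured 269, 312 and 211 CPM with AZD8055, 266, 254 and 316 CPM with KU63794 and 456, 413 and 366 CPM with TORIN1, against 647, 681 and 688 CPM in mock. No inhibitor library reached the lowest mock library, and the TORIN1 libraries lay between those of the other compounds and mock. Relative to mock, the mean level was 39.3% under AZD8055, 41.5% under KU63794 and 61.2% under TORIN1. The log2 fold changes were -1.35 (SE 0.14), -1.27 (SE 0.14) and -0.71 (SE 0.14), with edgeR adjusted p = 7.74e-06, 1.53e-05 and 0.00227. Without AZD8055 replicate 3 the AZD8055 value was -1.21, and without KU63794 replicate 2 the KU63794 value was -1.21.

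NUC2 (AT3G18610, chr3:6404053-6407946, minus strand) encodes the second nucleolin, known to be expressed weakly in wild type and more strongly when NUC1 is lost. It rested on few reads, 40, 37 and 10 counts with AZD8055, 40, 23 and 27 counts with KU63794 and 50, 11 and 34 counts with TORIN1, against 82, 47 and 25 in mock. Its levels were 3.47, 3.65 and 0.859 CPM with AZD8055, 3.12, 1.8 and 2.24 CPM with KU63794 and 4.86, 1.24 and 2.59 CPM with TORIN1, against 5.61, 4.47 and 3.26 CPM in mock. The KU63794 libraries all lay below mock, whereas 2 AZD8055 libraries and 1 TORIN1 library overlapped the mock range. The log2 fold changes were -0.77 (SE 0.49), -0.91 (SE 0.49) and -0.63 (SE 0.48), and none passed the test (edgeR adjusted p = 0.263, 0.197 and 0.413). Single libraries moved these values: with AZD8055 the change was -0.35 without AZD8055 replicate 3. With TORIN1 it was -1.18 without TORIN1 replicate 1, -0.29 without TORIN1 replicate 2 and -0.41 without mock replicate 1. With KU63794 it was -0.75 without KU63794 replicate 2. A fit on the KU63794 and mock libraries alone gave -0.92 and edgeR adjusted p = 0.0291.

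The nucleolin pair was also compared as a ratio within each library, which needs no scaling between libraries. Per kilobase of exon, NUC2 made up 0.376 to 1.2% of the pair with AZD8055, 0.653 to 1.08% with KU63794, 0.279 to 0.979% with TORIN1 and 0.437 to 0.797% in mock, so that NUC1 was nearly all of the nucleolin signal in every library. The log2 ratio of NUC2 to NUC1 counts (pseudocount 0.5) moved by 0.41 with AZD8055, 0.39 with KU63794 and -0.06 with TORIN1 relative to mock. Exact two-sided permutation tests gave p = 0.6, 0.4 and 1.0, where 3 against 3 libraries cannot go below 0.1. With 1 library left out at a time the difference ran from 0.12 to 0.93 with AZD8055, 0.15 to 0.59 with KU63794 and -0.46 to 0.43 with TORIN1, so its size and, with TORIN1, its sign rested on single libraries. Without AZD8055 replicate 3 it was 0.93, and without KU63794 replicate 2 it was 0.50. Over the 9 inhibitor libraries together the ratio moved by 0.24 (exact permutation p = 0.618; smallest possible p 0.00909). The coding sequences of the pair are 1674 and 1911 bp, 70.5% identical over 1621 aligned bases, and their transcripts share no stretch of 50 bases, the longest common run being 32. How reads shared between genes were counted is not given in the sources used here.

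PES, BOP1 and WDR12 form PeBoW, a complex required for the maturation of the large-subunit rRNA precursor and, in plants, for cell proliferation. The 3 subunits were lower together with each compound. PES (AT5G14520, chr5:4680540-4684472, minus strand) measured 51.0, 54.6 and 31.6 CPM with AZD8055, 48.3, 46.9 and 53.0 CPM with KU63794 and 66.5, 60.4 and 54.3 CPM with TORIN1, against 113, 108 and 108 CPM in mock. BOP1 (AT2G40360, chr2:16852880-16856771, minus strand) measured 49.6, 51.6 and 26.5 CPM with AZD8055, 45.1, 43.9 and 46.5 CPM with KU63794 and 68.3, 58.5 and 50.3 CPM with TORIN1, against 110.2, 114 and 104 CPM in mock. WDR12 (AT5G15550, chr5:5058672-5062144, minus strand) measured 21.8, 21.7 and 15.3 CPM with AZD8055, 25.5, 24.7 and 24.0 CPM with KU63794 and 31.5, 27.4 and 23.2 CPM with TORIN1, against 48.6, 49.8 and 43.5 CPM in mock. In none of the 3 genes did an inhibitor library reach the mock range, and replicate 3 was the lowest AZD8055 and the lowest TORIN1 library for each of them.

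The log2 fold changes of PES were -1.26, -1.15 and -0.86 (SE 0.15; edgeR adjusted p = 4.19e-05, 0.000101 and 0.00159) with AZD8055, KU63794 and TORIN1. Those of BOP1 were -1.37, -1.28 and -0.90 (SE 0.19; edgeR adjusted p = 0.000205, 0.00039 and 0.00594). Those of WDR12 were -1.27, -0.94 and -0.79 (SE 0.14; edgeR adjusted p = 1.36e-05, 0.000178 and 0.00124). Without AZD8055 replicate 3 the AZD8055 values were -1.06 for PES, -1.12 for BOP1 and -1.12 for WDR12. Without KU63794 replicate 2 the KU63794 values were -1.12, -1.26 and -0.94. Per kilobase of exon the order PES, BOP1, WDR12 held in all groups. Mean levels on that scale were 21.1, 16.1 and 10.3 CPM per kilobase with AZD8055, 22.8, 17.1 and 13 with KU63794, 27.9, 22.4 and 14.3 with TORIN1, and 50.7, 41.5 and 24.8 in mock.

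BRX1-1 and BRX1-2 encode Brix-domain proteins, the plant counterparts of yeast Brx1, which acts in assembly of the large subunit. BRX1-2 (AT1G52930, chr1:19711179-19713308, plus strand) measured 22.9, 19.9 and 8.42 CPM with AZD8055, 19.3, 15.6 and 13.1 CPM with KU63794 and 26.4, 24.4 and 16.5 CPM with TORIN1, against 46.4, 43.4 and 47.9 CPM in mock. All inhibitor libraries lay below all mock libraries. Its log2 fold changes were -1.43 (SE 0.30), -1.52 (SE 0.30) and -1.04 (SE 0.30), with edgeR adjusted p = 0.00441, 0.00357 and 0.0303. With TORIN1 the call was lost when mock replicate 1, 2 or 3 was left out (edgeR adjusted p = 0.08, 0.0695 and 0.0777), and when TORIN1 replicate 2 or 3 was (0.0668 and 0.109), with log2 fold changes of -1.03, -1.07, -1.01, -1.10 and -0.85. The value with AZD8055 was -1.10 without AZD8055 replicate 3, and that with KU63794 was -1.50 without KU63794 replicate 2.

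BRX1-1 (AT3G15460, chr3:5214084-5216261, minus strand) was lower with AZD8055 and TORIN1 and split with KU63794. It measured 17.4, 20.9 and 19.3 CPM with AZD8055, 27.2, 53.4 and 27.2 CPM with KU63794 and 28.7, 18.7 and 19.9 CPM with TORIN1, against 46.8, 52.9 and 50.3 CPM in mock. KU63794 replicate 2 lay above all 3 mock libraries, while the other KU63794 libraries lay below them. The log2 fold changes were -1.38 (SE 0.25) with AZD8055 and -1.16 (SE 0.24) with TORIN1, with edgeR adjusted p = 0.00127 and 0.00618. With KU63794 the change of -0.48 (SE 0.24) did not pass (edgeR adjusted p = 0.171). Without KU63794 replicate 2 it was -0.88 (SE 0.16) and passed (edgeR adjusted p = 0.00118).

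The 3′ end of BRX1-1 overlaps an exon of the gene AT3G15450, on the opposite strand, by 41 bases. AT3G15450, annotated as an aluminum-induced protein, measured 201, 149 and 282 CPM with AZD8055, 186, 667 and 188 CPM with KU63794 and 256, 151 and 127 CPM with TORIN1, against 414, 424 and 441 CPM in mock. It too was high in KU63794 replicate 2 and low in the other KU63794 libraries. Its log2 fold changes of -1.02, -0.29 and -1.26 did not pass (edgeR adjusted p = 0.181, 0.736 and 0.133). Whether counting used strand is not given in the sources used here, and the part of the overlap in the BRX1-1 counts was not tested. NUC1 and NSN1 also overlap a neighbour, by 90 and 201 bases, but those neighbours, AT1G48930 and AT3G07040, averaged 1.05 and 1.07 CPM over the 12 libraries.

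**Figure D3:**
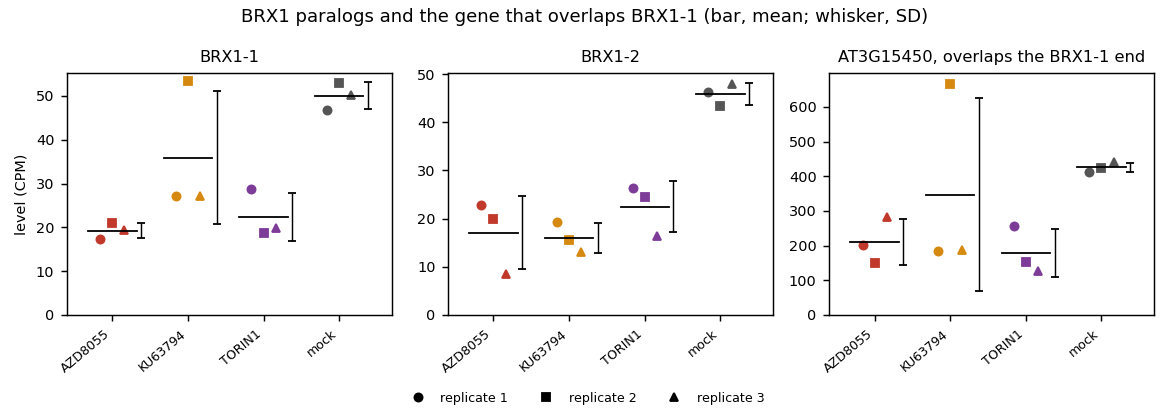
Levels in CPM (linear axes from 0) of BRX1-1, BRX1-2 and the gene AT3G15450, which overlaps the end of BRX1-1, in the 12 libraries. Symbols are replicates, bars means and whiskers SD (n = 3). KU63794 replicate 2 stands at 53.4 CPM for BRX1-1 and 667 CPM for AT3G15450, above all mock libraries in both, and at 15.6 CPM for BRX1-2, below them.

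Within the BRX1 pair, BRX1-2 made up 56.1, 48.1 and 29.8% of the level per kilobase with AZD8055, 40.8, 22.2 and 31.9% with KU63794, 47.3, 56.0 and 44.6% with TORIN1 and 49.1, 44.4 and 48.1% in mock. The pair was thus close to even in mock, and all KU63794 libraries lay below the mock range. The log2 ratio of BRX1-2 to BRX1-1 counts moved by -0.17 with AZD8055, -0.98 with KU63794 and 0.12 with TORIN1 (exact permutation p = 0.8, 0.1 and 0.8). The KU63794 value reached the smallest p that 3 against 3 libraries allow, and the p adjusted over the 8 ratio tests of both pairs was 0.8. Without KU63794 replicate 2 the KU63794 value was -0.65, and without AZD8055 replicate 3 the AZD8055 value was 0.28, of the opposite sign. Over the 9 inhibitor libraries the ratio moved by -0.34 (exact permutation p = 0.482). The coding sequences of 948 and 963 bp are 84.4% identical and the transcripts share no stretch of 50 bases, the longest common run being 29.

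NSN1 (AT3G07050, chr3:2229355-2232361, minus strand) encodes a nucleostemin-like GTPase of the nucleolus. It measured 31.7, 26.8 and 18.4 CPM with AZD8055, 27.8, 25.7 and 27.3 CPM with KU63794 and 43.1, 42.7 and 33.9 CPM with TORIN1, against 70.7, 74.3 and 72.7 CPM in mock. The ranges of inhibitor and mock libraries were far apart. NSN1 changed by -1.50, -1.43 and -0.87 on the log2 scale with AZD8055, KU63794 and TORIN1 (edgeR adjusted p = 8.74e-06, 1.51e-05 and 0.00131; SE 0.15 each). Without AZD8055 replicate 3 its AZD8055 value was -1.31, and without KU63794 replicate 2 its KU63794 value was -1.40. The share of all tested genes with a lower log2 fold change than NSN1 was 1.49% with AZD8055, 1.29% with KU63794 and 5.24% with TORIN1.

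ENP1 (AT1G31660, chr1:11330924-11333540, minus strand) is the counterpart of yeast Enp1, or bystin, which acts in maturation of the small subunit. It measured 18.8, 19.8 and 13 CPM with AZD8055, 19.0, 17.3 and 18.8 CPM with KU63794 and 27.4, 26.9 and 26.0 CPM with TORIN1, against 45.8, 48.2 and 47.4 CPM in mock. Its replicates were close together with KU63794, TORIN1 and mock, and the groups did not overlap with mock. For ENP1 the fitted log2 changes were -1.45, -1.36 and -0.82, with an SE of 0.13 each and edgeR adjusted p = 2.89e-06, 6.11e-06 and 0.000635. They were -1.29 with AZD8055 without its replicate 3 and -1.32 with KU63794 without its replicate 2.

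APUM23 (AT1G72320, chr1:27228059-27233167, minus strand) is a Pumilio RNA-binding protein of the nucleolus needed for removal of precursor rRNA fragments. It measured 16.3, 18.6 and 15.0 CPM with AZD8055, 19.1, 17.7 and 19.3 CPM with KU63794 and 19.9, 25 and 20.5 CPM with TORIN1, against 29.5, 33.9 and 34.1 CPM in mock. Again no inhibitor library reached mock, and the changes were smaller than those of NSN1 and ENP1 with each compound, a comparison of estimates that was not tested. In the fit APUM23 changed by -0.97, -0.79 and -0.58 on the log2 scale (SE 0.12; edgeR adjusted p = 3.51e-05, 0.000194 and 0.00333). The share of all tested genes with a lower log2 fold change than APUM23 was 6.23% with AZD8055, 7.56% with KU63794 and 11.8% with TORIN1.

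**Figure D4:**
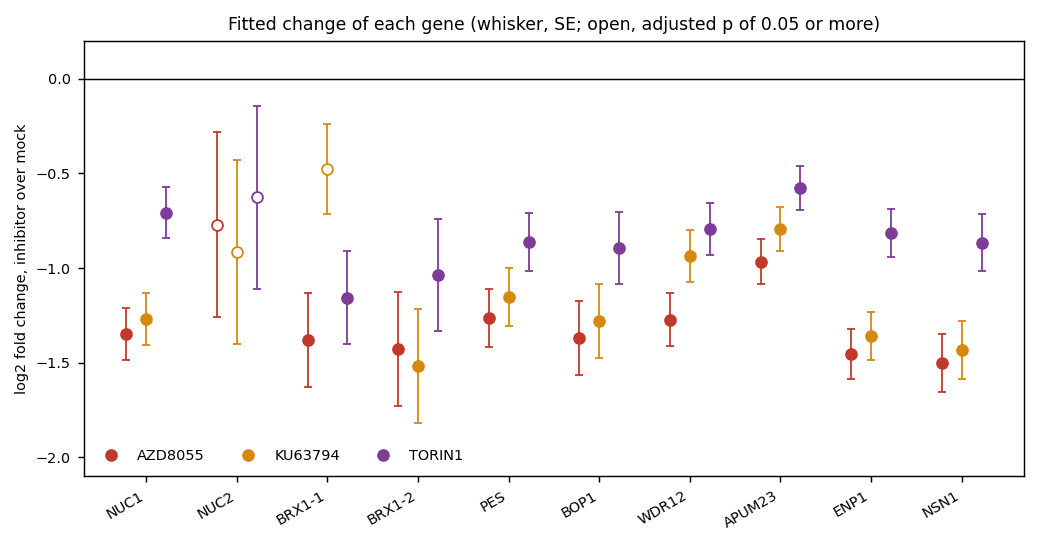
Log2 fold change of each gene, inhibitor over mock, with AZD8055 (red), KU63794 (orange) and TORIN1 (purple) and SE as whiskers. Filled circles passed the edgeR test at an adjusted p below 0.05 and open ones did not. The estimates run from -1.52 (BRX1-2 with KU63794) to -0.48 (BRX1-1 with KU63794), and the 4 open circles are NUC2 with all 3 compounds and BRX1-1 with KU63794.

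Other genes of ribosome assembly moved the same way. Of 35 further assembly factors, 32 were lower with AZD8055, 33 with KU63794 and 28 with TORIN1, none was higher, and 27 were lower with all 3. Of all tested genes, 16.1%, 14.3% and 10.3% were lower with these compounds. At most 10.3% can therefore have been lower with all 3, a share that was not computed. The factors were listed with earlier results of these data known, and the list was not tested. Their median log2 fold changes were -1.06, -0.96 and -0.68. MPP10, IMP4 and NOC4, small-subunit processome components as known in yeast, were lower with AZD8055, KU63794 and TORIN1. MPP10 measured 22.4, 21.1 and 12.9 CPM with AZD8055, 20.6, 18 and 21.0 CPM with KU63794 and 28.1, 30.6 and 25.9 CPM with TORIN1, against 49.9, 49.5 and 50.3 CPM in mock. Its log2 fold changes were -1.41, -1.33 and -0.83 (edgeR adjusted p = 1.53e-05, 2.85e-05 and 0.00191), those of IMP4 -1.06, -1.14 and -0.66, and those of NOC4 -1.15, -1.13 and -0.60. The mock libraries of MPP10 lay within 1 CPM of each other and far above the inhibitor libraries.

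Large-subunit factors in the same list were RRS1 and RPF2, whose yeast counterparts bring the 5S particle into the early subunit, and APUM24, a Pumilio protein of the nucleolus. Log2 fold changes with AZD8055, KU63794 and TORIN1 were -1.36, -1.17 and -0.70 for RRS1, -1.40, -1.34 and -0.74 for RPF2, and -1.11, -1.06 and -0.68 for APUM24, all past the edgeR threshold. SMO4 was lower by smaller amounts, at -1.03, -0.88 and -0.41. PPAN passed with AZD8055 at -1.22 and KU63794 at -0.95, while its value of -0.54 with TORIN1 did not (edgeR adjusted p = 0.0667). EBP2 passed with KU63794 at -1.23 and TORIN1 at -1.29, and its value of -0.87 with AZD8055 did not (edgeR adjusted p = 0.0717). It rested on few reads, 13 to 74 counts a library, with an SE of 0.35 to 0.36. Its AZD8055 libraries also all lay below mock, and the compounds were not tested against each other. SWA1 and the nuclear exonuclease XRN3 passed with none of the 3 compounds and are named because they alone did not, after their values were seen. With AZD8055, KU63794 and TORIN1, SWA1 was at -0.31, -0.55 and -0.84 (SE 0.33 to 0.34). It rested on few reads, 17 to 59 counts a library. XRN3 was at -0.19, -0.19 and -0.18 (SE 0.10).

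Genes of RNA polymerase I, which makes the precursor on which these factors act, and of its initiation factor RRN3 were lower as well in most comparisons. Of 5 such genes, 5 were lower with AZD8055, 4 with KU63794 and 3 with TORIN1, with medians of -1.09, -0.93 and -0.39. The shares of all tested genes that were lower were 16.1%, 14.3% and 10.3%, and this list too was chosen with earlier results known. NRPA1, its largest subunit, measured 15.7, 17.7 and 8.33 CPM with AZD8055, 16.2, 14.4 and 14.8 CPM with KU63794 and 23.0, 19.7 and 17.5 CPM with TORIN1, against 33.1, 37.8 and 31.0 CPM in mock, and no inhibitor library reached mock. The log2 fold changes of NRPA1 were -1.30, -1.17 and -0.76, and those of NRPA2, the second-largest subunit, -1.28, -1.09 and -0.71. All of these passed the test, with edgeR adjusted p = 0.000334, 0.000823 and 0.0161 for NRPA1 and 7.59e-06, 2.99e-05 and 0.00151 for NRPA2. RRN3-A passed with each compound, at -0.58, -0.47 and -0.39. RRN3-B passed with AZD8055 at -0.41. It did not pass with KU63794 (-0.19, edgeR adjusted p = 0.227) or TORIN1 (-0.17, edgeR adjusted p = 0.312). The subunit RPA12 passed with AZD8055 at -1.09 and KU63794 at -0.93, and not with TORIN1 (-0.34, edgeR adjusted p = 0.239). The promoter windows of the 35 assembly factors held a telo box in 11 of 35 and a site II element in 21 of 35, and those of these 5 genes in 0 and 1 of 5.

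**Figure D5:**
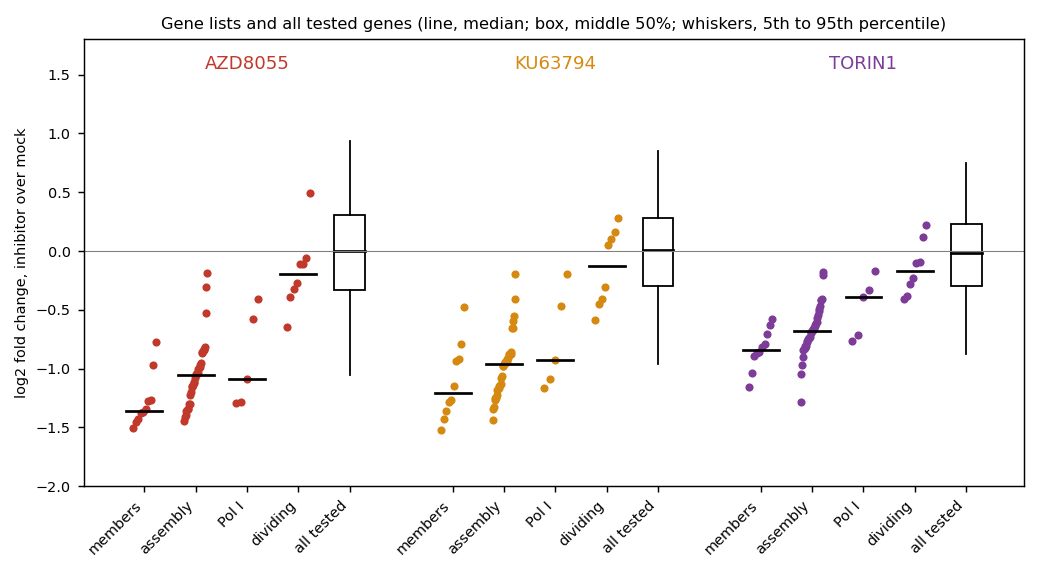
Log2 fold changes, inhibitor over mock, of the 10 nucleolar genes (members), 35 other assembly factors, 5 RNA polymerase I genes and 8 dividing-cell markers, with lines at the medians, beside the distribution of all 17933 tested genes (box, middle 50%; whiskers, 5th to 95th percentile). The median of the 10 genes lies at -1.36 with AZD8055, -1.21 with KU63794 and -0.84 with TORIN1, while the medians of the dividing-cell markers lie at -0.19, -0.13 and -0.17.

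Across the 12 libraries the 10 genes varied together. This is a description, and the difference between inhibitor and mock libraries is part of it. The Pearson correlation of log2 CPM ran from 0.405 to 0.995 over the 45 pairs, with a median of 0.932. With group means removed, which leaves the variation between replicates, it ran from -0.323 to 0.98 with a median of 0.734. AZD8055 replicate 3, the lowest of all 12 libraries for 9 of the 10 genes, is part of these values. The correlations were not computed without it, nor over pairs of all tested genes. Against the mean profile of the group, BOP1 (0.995), PES (0.993) and WDR12 (0.986) were closest, and NUC2 (0.729) and BRX1-1 (0.703) farthest. With group means removed the order differed: NUC2 was at 0.854, above NUC1 at 0.812, and APUM23 (0.298) and BRX1-1 (0.173) were farthest. Each gene was itself part of the mean profile, so these values do not compare it with the other genes alone. In single pairs within groups, NUC2 ran from -0.095 (with APUM23) to 0.786 (with BOP1). NUC1 ran from -0.026 (with BRX1-1) to 0.902 (with PES). Without NUC2 and BRX1-1, the genes farthest over the 12 libraries, the remaining 28 pairs ran from 0.872 to 0.995, a range made narrower by that choice. Within groups these pairs ran from 0.264 to 0.98.

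Among all other tested genes, 6 had the profiles most like the mean of the 10 over the 12 libraries. EMB2777, also called THAL, a Sas10 family protein and one of the 35 assembly factors, was at r = 0.994, AT3G03920, annotated as a Gar1/Naf1 subunit of H/ACA ribonucleoproteins, at 0.988, and NRPA1 at 0.986. The others were AT3G18600 (0.988) and AT1G06720 (0.986), annotated as P-loop nucleoside triphosphate hydrolases, and AT4G25730 (0.987), annotated as an FtsJ-like methyltransferase. AT3G18600 lies 660 bases from NUC2 on the same strand, and its log2 fold changes were -1.83 with AZD8055, -1.78 with KU63794 and -1.14 with TORIN1.

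The authors' deposited tables, which come from these same libraries, list genes at an adjusted p below 0.05 as mock over inhibitor. They list 5308 genes for AZD8055, 4558 for KU63794 and 3696 for TORIN1, and hold 9, 8 and 9 of the 10 genes. In the edgeR fit, 30.5%, 25.4% and 20.1% of all tested genes changed in either direction. NUC2 is in none of the 3 tables and BRX1-1 is missing from that of KU63794. In the authors' deposited tables the log2 fold changes of the listed genes, mock over inhibitor, run from 0.907 to 1.38 for AZD8055, 0.737 to 1.31 for KU63794 and 0.554 to 0.992 for TORIN1. In the authors' deposited table of averages over inhibitors, with the sign of inhibitor over mock, 9 of the 10 genes are listed. Genes listed for all 3 compounds run from -0.73 for APUM23 to -1.17 for NSN1. BRX1-1 stands at -0.72, nearer 0 than its listed values (1.17 for AZD8055 and 0.992 for TORIN1, mock over inhibitor). Its average is thus no mean of those values and cannot be ranked with the others.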

How the data were processed

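Gene counts of 12 libraries were read as the authors deposited them, not normalized, for 33602 genes each. Per the submitters' processing notes the tools included StringTie 1.3.3 and DESeq2 1.18.1 with the TAIR10 genome; which aligner and strand setting were used is not stated in them. The normalized signal the authors deposited was proportional to the counts in each library (largest relative deviation 5.11e-15). The authors' deposited tables hold log2 fold changes, p-values and, as scores, standard errors and Wald statistics, per the file headers; their sign was found opposite to inhibitor over mock for 100% of genes compared.

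The test was that of edgeR 4.0.16 under R 4.3.3 (TMM, default low-count filter, robust quasi-likelihood fit of all 12 libraries, two-sided), with Benjamini-Hochberg adjustment over 17933 genes per comparison. All CPM, floors included, use TMM-adjusted totals. Leaving out each library, DESeq2 1.42.0, limma 3.58.1 voom, other scalings and filters were alternatives, and the fit was tested on simulated data. Ratios of paralogs were tested by exact permutation over libraries with SciPy 1.17.1. Coordinates, exon lengths and sequences came from RefSeq TAIR10.1, aligned with Biopython 1.88; figures used matplotlib 3.10.9. The 10 genes and all lists were chosen with earlier results of these data known, and no list was tested. Named besides these are 9 assembly factors and 2 polymerase genes from a fixed list and the 6 genes most correlated with the mean profile. SWA1, XRN3 and the remaining polymerase genes RRN3-A, RRN3-B and RPA12 were named after their values were seen.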

Additional observations from a re-analysis of the deposited data

How the results depend on the processing

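Over the alternatives, 563 of 570 fold changes of the 10 genes kept their direction and side of the threshold, 5 lost the call (BRX1-2 with TORIN1), 2 gained it (NUC2 and BRX1-1 with KU63794) and 0 reversed. Leaving out each library in turn gave 9 to 9 of the 10 genes called with AZD8055, 8 to 9 with KU63794 and 8 to 9 with TORIN1, and 32 to 33, 31 to 33 and 23 to 31 of the 35 other assembly factors. The count of all genes called then ran from 4044 to 5669 with AZD8055, from 3288 to 5136 with KU63794 and from 2220 to 4192 with TORIN1, the last falling to 2220 without mock replicate 2 and 2242 without TORIN1 replicate 3. The log2 ratio of NUC2 to NUC1 with TORIN1 reversed to 0.046 with a pseudocount of 5 and ran from -0.46 to 0.43 when libraries were left out (0.12 to 0.93 with AZD8055, 0.15 to 0.59 with KU63794), that of BRX1-2 to BRX1-1 from -0.51 to 0.28 with AZD8055 and from -0.072 to 0.26 with TORIN1; the cause was not tested. Deviations of same-numbered libraries of different groups correlated at -0.268 to 0.228 (median 0.025, 18 pairs). Those of differently numbered libraries correlated at -0.303 to 0.228 (median 0.004, 36 pairs). Taken over all pairs, these ranges do not set same-numbered libraries apart, and a pairing between some groups was not tested. With a replicate block, 5440, 4568 and 3582 genes were called with AZD8055, KU63794 and TORIN1, against 5461, 4555 and 3613 without, and 9, 8 and 9 of the 10 genes. Plain library totals in place of TMM scaling were chosen after seeing the data. At its depth of 10 to 82 counts a library, the SE of NUC2 was 0.48 to 0.49 on the log2 scale, against 0.12 to 0.30 for the other genes.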
